A study of Mus musculus with 6 samples.

Results

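Nuclear respiratory chain genes were read in the cerebellum of mice at postnatal day 18, in 3 libraries from mice with a large enhancer of Atoh7 deleted (enhancer KO) and 3 libraries from wild-type mice (WT). Members were every gene whose symbol starts with Nduf, Uqcr, Atp5 or Cox4 to Cox8, together with Sdha, Sdhb, Sdhc and Sdhd. The rule found 92 of the 24411 gene symbols: 38 genes of complex I, 7 assembly factors of complex I, 4 genes of complex II, 8 of complex III, 18 of complex IV, 15 of complex V, and Atp5s and Atp5sl, which carry the Atp5 name but are not standard subunits of the ATP synthase. Atoh7 encodes a transcription factor best known for the genesis of retinal ganglion cells, and the series from which these libraries come asked what its enhancer does. The deletion is the 1 difference between the groups that the labels give, and both groups share the age. The labels name no strain, sex, litter or number of animals per library, and call the libraries independent replicates. P-values therefore measure the spread between these libraries.

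The respiratory chain sits in the inner mitochondrial membrane. Complexes I and II pass electrons from NADH and succinate to coenzyme Q, complex III passes them on to cytochrome c, and complex IV hands them to oxygen. Complexes I, III and IV pump protons, and complex V, the ATP synthase, lets the protons back through its membrane ring and makes ATP. Most subunits are encoded in the nucleus, while a core of complexes I, III, IV and V is encoded in mitochondrial DNA. Neurons depend on the chain for the ATP that restores ion gradients after firing, and the transcription factors NRF1 and GABP are known to bind many promoters of its nuclear genes.

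The libraries held 57466712 to 65530873 reads in enhancer KO and 59850539 to 63545272 in WT, of which 36849747 to 40858310 and 22812075 to 33076111 fell in genes. Reads outside annotated exons took 17.4% ± 0.734 of all reads in enhancer KO and 32.4% ± 1.56 in WT (SD, n = 3 each), with no overlap between the groups. The ribosomal RNA gene Rn45s held 1.51% to 3.02% of gene reads, except in WT replicate 2, where it held 12.9%. WT replicate 1 had 34185 Xist reads and 0 Ddx3y reads, while the other libraries had 28 to 50 Xist reads and 1916 to 4405 Ddx3y reads. These counts are those of a female library and 5 male ones, so sex was not balanced between the groups. Atoh7 itself had 0.766 ± 0.0835 CPM (counts per 1000000 reads of the TMM-scaled library) in enhancer KO and 2.04 ± 0.0945 CPM in WT (SD, n = 3 each), and its log2 fold change, with the SE of the fit, was -1.41 ± 0.205 at an edgeR adjusted p of 0.000353. The protocol in the labels names cerebellum and the tissue field names retina. Summed CPM of 16 granule cell markers was 2029 to 2514 in enhancer KO and 3069 to 3763 in WT. The 10 photoreceptor markers summed to 1.66 to 1.83 CPM in enhancer KO and 1.56 to 2.62 CPM in WT, with the cone gene Arr3 at 0 reads, so the libraries carry the markers of cerebellum.

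Some of the respiratory chain genes tested were slightly higher in the enhancer KO cerebellum, and none passed as lower. Each complex held at least 3 that rose. Complexes IV and V had the smallest shares of the complexes, 18.8% and 20%, against 13.4% of all genes tested. That order was not tested and depended on the libraries used. Without WT replicate 2, complex IV had 6 members higher and complex V had 1. Of the 92 members 89 passed the filter on low counts, 22 were higher in enhancer KO (24.7%), 0 were lower and 67 did not pass the threshold, an edgeR adjusted p of 0.05. Over all 15846 genes tested 31.3% passed, 13.4% higher and 17.9% lower, or 2120 and 2844 genes, and with library size alone as the scaling 2165 were higher and 1689 lower. No member was lower at an unadjusted p of 0.05 either, where 33 were higher. All genes were not counted at that unadjusted threshold, so these counts have no share to be read against. No member was lower by DESeq2 or limma-voom, while 2412 and 2811 of all genes were. The 22 members were higher by 10.2% to 38.1%, with a median of 17.2%. That size was ordinary: the median increase over all genes that rose was 17.1%. In each of the 22 the lowest enhancer KO library lay above the highest WT library, and 29 members in all were so separated, with 3 separated the other way. Over all genes tested 20.5% were separated upwards and 24.3% downwards. The log2 fold change was positive for 77 of the 89 members (86.5%), against 50.1% of all genes tested, with a median of 0.11 for the members and 0.00 for all genes. Summed over the 92 members, the level was 10670, 10800 and 11370 CPM in the enhancer KO libraries, against 9532, 10310 and 10180 CPM in the WT libraries. The groups did not overlap, and the sum was 9.39% higher in enhancer KO, although WT replicate 1 alone lay well below the other WT libraries. Without WT replicate 1, the female library, the members' median log2 fold change was 0.06, and 19 members were higher. The lowest count of members higher was 18, without enhancer KO replicate 2, and the highest was 27, without WT replicate 2.

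**Figure D1:**
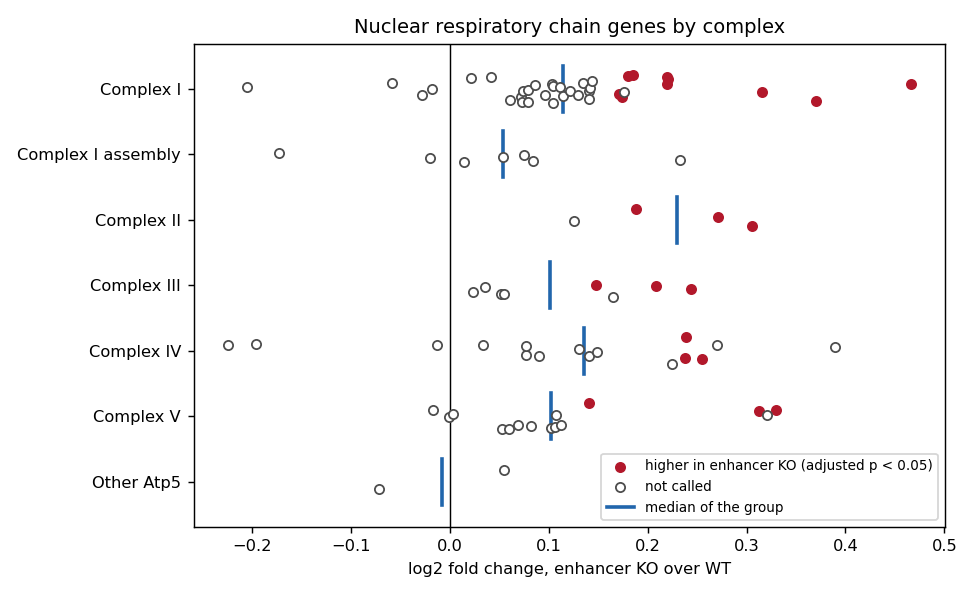
Log2 fold change (x axis, enhancer KO over WT, n = 3 libraries each) of the 89 members tested, 1 point a gene, in rows by complex. Filled points passed the edgeR adjusted p of 0.05, open points did not, and blue bars are the medians, which lie between -0.01 for Atp5s and Atp5sl and 0.23 for complex II. All 22 filled points lie to the right of 0.

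The small size and the shared direction stood beside other differences between the groups. In whole tissue, fewer cells of a type and less RNA per cell cannot be told apart. Over all genes tested, 13.4% were higher and 17.9% lower. Of 16 granule cell markers 15 were lower in enhancer KO, while 9 of 12 Purkinje cell markers were higher, with summed CPM of 8615 to 9009 in enhancer KO and 6342 to 7423 in WT. Of 10 astroglial markers 4 were higher, with sums of 7919 to 8363 CPM in enhancer KO and 6788 to 6902 CPM in WT. Microglial markers were higher for 5 of 8, summing to 287.1 to 339.8 CPM in enhancer KO and 256.5 to 269.8 CPM in WT. Endothelial markers were lower for 6 of 9, summing to 147.3 to 172.4 CPM in enhancer KO and 193.5 to 225.2 CPM in WT. Mural cell markers were lower for 2 of 11 (18.2%), near the share of all genes. Their sums overlapped, at 235.9 to 282 CPM in enhancer KO and 269.5 to 309.8 CPM in WT. Of 10 oligodendrocyte markers 1 was higher (10%) and 2 were lower (20%), also near the shares of all genes. These sums overlapped as well, at 32410 to 35640 CPM in enhancer KO and 29510 to 32810 CPM in WT. None of 6 choroid plexus markers passed, and their sums varied widely, from 791 to 1999 CPM in enhancer KO and from 1166 to 1832 CPM in WT. The muscle list had 4 of 10 genes tested, with Mb higher and sums of 3.85 to 6.47 CPM in enhancer KO and 4.10 to 6.10 CPM in WT, and the photoreceptor list had 3 of 10 tested, with Rcvrn lower. The part that cell makeup, or the share of reads outside exons, had in the members' values was not tested.

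Promoters of the members were compared for the letters that NRF1 and the ETS factor GABP are known to bind. RefSeq (GRCm38.p6) gave 78 windows for 73 members, and the 250 bases before the start were searched on both strands. The NRF1 motif, GCGCA and GCGC with any base between them, was in 15 of the 78 windows (19.2%), against 3.74% of all 32851 windows. The ETS motif CCGGAAG was in 13 (16.7%), against 6.91% of all windows, and the YY1 motif, AAGATGG directly followed by CGGC, in 0, against 0.207% of all. Among windows of members higher in enhancer KO, 2 of 17 held the NRF1 motif (11.8%) and 3 of 17 the ETS motif (17.6%). Among windows of members that did not pass, 12 of 59 held the NRF1 motif (20.3%) and 10 of 59 the ETS motif (16.9%). Both motifs were held by a larger share of the member windows than of all windows, and windows of members that rose were not tested against those of members that did not pass. A site read on both strands of a window was counted once. Windows were counted, not genes, and 5 members had several. For Ndufa5, 2 overlapping windows both held the NRF1 motif, so 1 site can count in both. A match describes letters only, and binding was not measured. The stretches below end at the RefSeq start or, where the GENCODE gene begins before it, just before the gene's first base, with the motifs in capitals. Sdha and Atp5e stand for members that rose with a motif, Atp5g3 for one that rose with none in its window, and Sdhd and Ndufaf4 for members with a motif that did not pass.
Sdha, chr13:74350281-74350390, minus strand, 2 NRF1 motifs: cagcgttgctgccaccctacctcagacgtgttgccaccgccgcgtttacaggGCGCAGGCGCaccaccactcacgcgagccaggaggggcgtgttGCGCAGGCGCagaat
Atp5e, chr2:174464106-174464251, minus strand, 1 ETS motif: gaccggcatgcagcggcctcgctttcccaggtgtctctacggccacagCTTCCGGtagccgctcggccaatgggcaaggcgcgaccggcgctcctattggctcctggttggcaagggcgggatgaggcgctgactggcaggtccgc
Atp5g3, chr2:73911327-73911476, minus strand, no motif: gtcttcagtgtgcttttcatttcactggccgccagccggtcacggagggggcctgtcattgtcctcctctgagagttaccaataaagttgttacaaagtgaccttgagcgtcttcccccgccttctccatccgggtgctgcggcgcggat
Sdhd, chr9:50603850-50603999, minus strand, 1 NRF1 and 1 ETS motif: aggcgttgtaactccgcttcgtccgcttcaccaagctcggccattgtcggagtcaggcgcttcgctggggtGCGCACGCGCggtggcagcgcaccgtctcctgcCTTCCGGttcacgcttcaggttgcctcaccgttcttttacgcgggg
Ndufaf4, chr4:24897933-24898082, plus strand, 1 NRF1 motif: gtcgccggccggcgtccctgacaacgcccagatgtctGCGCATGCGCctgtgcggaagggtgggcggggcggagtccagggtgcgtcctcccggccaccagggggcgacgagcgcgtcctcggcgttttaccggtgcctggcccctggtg

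Complex I had 10 of 37 tested subunit genes higher in enhancer KO (27.0%, against 13.4% of all genes tested). Its summed level was 2951 ± 129 CPM in enhancer KO and 2701 ± 135 CPM in WT (SD, n = 3 each), 9.26% higher. Of the 7 core subunits, which carry the flavin and the iron-sulfur clusters, 1 rose. This was Ndufv1, the subunit that takes electrons from NADH. It had 134, 134 and 139 CPM in the enhancer KO libraries, against 117, 112 and 121 CPM in the WT libraries. The groups lay clear of each other, with an increase of 0.22 ± 0.0432 on the log2 scale (edgeR adjusted p = 0.00245). Log2 fold changes of all 7 core genes were positive, from 0.04 for Ndufs1 to 0.22 for Ndufv1.

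Of the 30 accessory subunits of complex I tested, 9 rose (30%, against 13.4% of all genes tested). Of these, 6 carry the Ndufb or Ndufc names given to subunits of the membrane arm. Ndufb2, Ndufb3, Ndufb4, Ndufb5, Ndufb11 and Ndufc2 carry these names too and did not pass. Ndufb6 (chr4:40270591-40279421, mm10) had the largest increase of any member that passed. Its level was 48.3, 56.7 and 57.4 CPM in enhancer KO and 36.9, 38.0 and 42.6 CPM in WT (log2 fold change 0.47 ± 0.0765, edgeR adjusted p = 0.00115). Ndufb9 followed, with 99.4, 110 and 118 CPM in enhancer KO and 80.4, 87.6 and 85.7 CPM in WT (0.37 ± 0.0615, edgeR adjusted p = 0.00103). In both genes enhancer KO replicate 1 was the lowest of its group and still above all WT libraries. Ndufa2, an accessory subunit of the matrix arm, had 53.8, 53.3 and 59.8 CPM in enhancer KO and 41.9, 46.0 and 46.4 CPM in WT (0.32 ± 0.0598, edgeR adjusted p = 0.00197). Ndufb8 had 144, 151 and 159 CPM in enhancer KO and 121, 132 and 137 CPM in WT (0.22 ± 0.0541, edgeR adjusted p = 0.00902). These 4 genes kept their call in every alternative run. The other 5, Ndufb10, Ndufb7, Ndufa8, Ndufa12 and Ndufc1, had log2 fold changes of 0.17 to 0.22, with edgeR adjusted p-values of 0.014 to 0.0356. Ndufc1 had 39.8, 43.4 and 44.2 CPM in enhancer KO and 37.9, 36.5 and 38.7 CPM in WT, and lost its call without any of 5 of the 6 libraries. Ndufb7 lost its call without enhancer KO replicate 1 or 2 or WT replicate 1, Ndufb10 without enhancer KO replicate 2, and Ndufa8 without enhancer KO replicate 3. Ndufb9 and Ndufa12 share 23.4% and 26.2% of their 50-base stretches with another gene, so their counts carry some uncertainty.

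Of the 27 complex I genes that did not pass, 23 had a positive and 4 a negative log2 fold change. Ndufa4, named for complex I but now assigned to complex IV, was the most abundant accessory gene by reads, with 186, 198 and 217 CPM in enhancer KO and 174, 201 and 195 CPM in WT (log2 fold change 0.08 ± 0.0675, edgeR adjusted p = 0.42). The negative ones were Ndufa4l2, described with the isoforms, and Ndufs4, Ndufa5 and Ndufb11, at -0.06, -0.03 and -0.02 with overlapping groups. Ndufs5 was listed at 0 in all 6 libraries. It shares 35.6% of its 50-base stretches with another gene, so the 0 may not be its level, and the cause was not tested. The 7 complex I assembly factors help build the complex and leave it. None of them passed the threshold, against 13.4% of all genes tested higher and 17.9% lower. With 7 genes, a count of 0 cannot be set apart from those shares. Log2 fold changes of the assembly factors ran from -0.17 for Ndufaf6 to 0.23 for Ndufaf2, with a median of 0.05. Their summed level was 125.9 ± 3.23 CPM in enhancer KO and 122.3 ± 8.94 CPM in WT (SD, n = 3 each). Ndufaf4, whose promoter is printed above, had 28.2, 29.3 and 28.5 CPM in enhancer KO and 26.4, 31.1 and 24.5 CPM in WT (0.08 ± 0.0789, edgeR adjusted p = 0.509). Assembly factors and subunits of complex I were not tested against each other.

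Complex II, succinate dehydrogenase, had the highest share of members called, 3 of 4 (75%, against 13.4% of all genes higher). It also had the highest median log2 fold change, 0.23. It is both a step of the citric acid cycle and an entry to the chain, and all its subunits are nuclear. Sdhc, a membrane anchor that holds heme, had 113, 114 and 113 CPM in enhancer KO and 92.9, 86.8 and 95.3 CPM in WT. The enhancer KO libraries were almost level with each other, with an increase of 0.31 ± 0.0441 on the log2 scale (edgeR adjusted p = 0.000336). Sdhb, the iron-sulfur subunit, had 92.7, 94.1 and 106 CPM in enhancer KO and 83.1, 80.4 and 79.2 CPM in WT (0.27 ± 0.0544, edgeR adjusted p = 0.00276). Sdha, the flavin subunit that oxidises succinate and whose promoter holds 2 of the NRF1 motifs printed above, had 346, 338 and 357 CPM in enhancer KO and 314, 304 and 296 CPM in WT (0.19 ± 0.0433, edgeR adjusted p = 0.00629). All 3 kept their call without any 1 library. Sdhd, the other membrane anchor, had 81.5, 83.4 and 86.3 CPM in enhancer KO and 72.1, 81.6 and 76.9 CPM in WT. Here WT replicate 2 overlapped the enhancer KO range (0.13 ± 0.0506, edgeR adjusted p = 0.0804). Summed over the 4 genes, the level was 641.7 ± 17.7 CPM in enhancer KO and 554 ± 7.51 CPM in WT (SD, n = 3 each), 15.8% higher. With 4 genes the share rests on few members, and complexes were not tested against each other.

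Complex III had 3 of 8 members higher (37.5%, against 13.4% of all genes tested), and all 8 log2 fold changes were positive. Uqcrq, a small subunit beside cytochrome b, had 110, 111 and 116 CPM in enhancer KO and 86.9, 96.5 and 100 CPM in WT (log2 fold change 0.24 ± 0.0536, edgeR adjusted p = 0.00475). Uqcrc1, a core protein on the matrix side, had 253, 239 and 246 CPM in enhancer KO and 212, 202 and 224 CPM in WT (0.21 ± 0.046, edgeR adjusted p = 0.00496). Uqcrfs1, the Rieske iron-sulfur protein that passes electrons towards cytochrome c, had 121, 118 and 122 CPM in enhancer KO and 107, 108 and 110 CPM in WT (0.15 ± 0.0393, edgeR adjusted p = 0.0132). No library of either group strayed into the other in these 3 genes. Uqcrc2, the partner core protein, had 166, 165 and 176 CPM in enhancer KO and 166, 165 and 158 CPM in WT (0.06 ± 0.0421, edgeR adjusted p = 0.356). The paired core proteins therefore had different outcomes at the threshold, and the difference between them was not tested. Summed over the 8 genes, the level was 1048 ± 27.7 CPM in enhancer KO and 960 ± 32.7 CPM in WT (SD, n = 3 each).

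**Figure D2:**
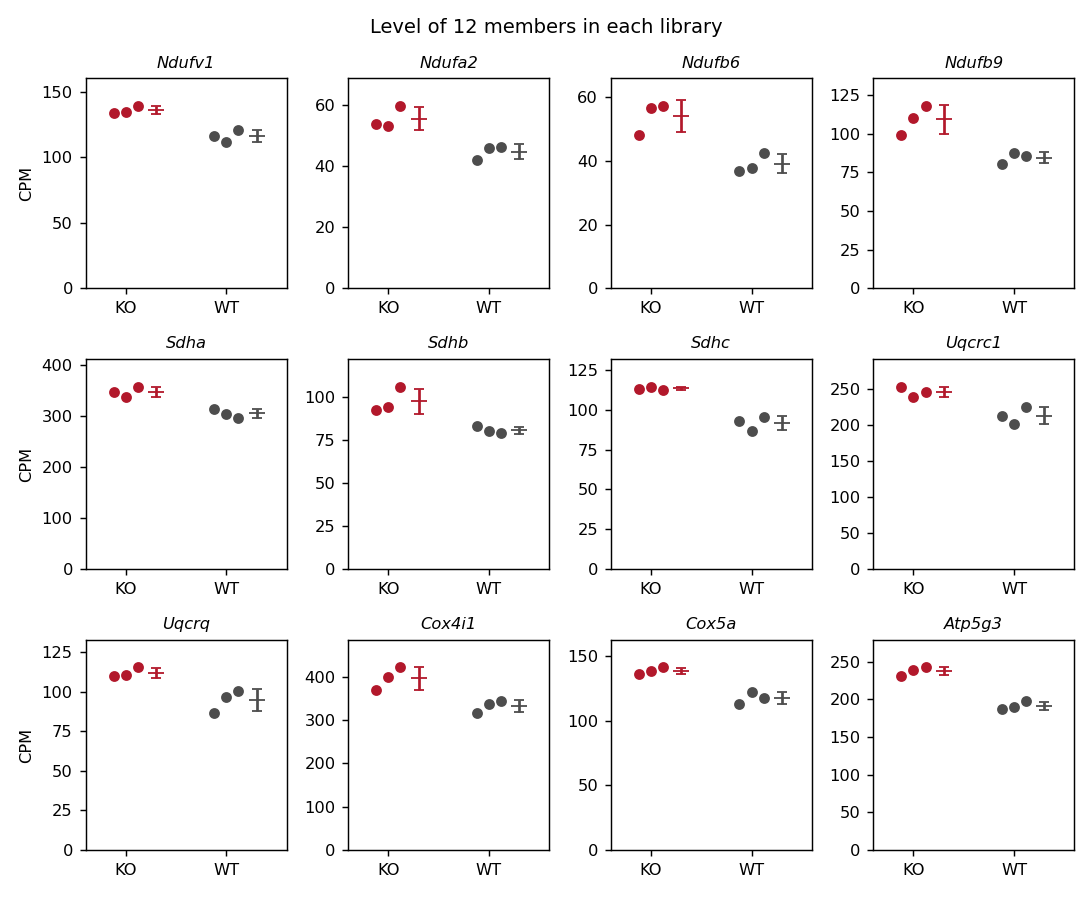
CPM (y axis, from 0) of 12 members higher in enhancer KO, 1 point a library, with the mean and SD of 3 libraries beside the points, enhancer KO in red and WT in grey. In every panel the red points lie above the grey points, by 24.2% on average for Atp5g3 and 13.9% for Sdha.

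Complex IV, cytochrome c oxidase, had 3 of 16 tested members higher (18.8%, against 13.4% of all genes tested) and a median log2 fold change of 0.14. Its summed level was 2167 ± 99 CPM in enhancer KO and 1979 ± 118 CPM in WT (SD, n = 3 each), and its groups overlapped. Cox4i1, the widely expressed isoform of regulatory subunit 4, had 369, 400 and 422 CPM in enhancer KO and 316, 338 and 344 CPM in WT (log2 fold change 0.26 ± 0.0553, edgeR adjusted p = 0.00438). Cox7a2l, a factor that joins complexes III and IV into supercomplexes, had 103, 106 and 109 CPM in enhancer KO and 86.9, 92.9 and 89.5 CPM in WT (0.24 ± 0.0434, edgeR adjusted p = 0.0015). Cox5a, a subunit on the matrix side, had 136, 138 and 141 CPM in enhancer KO and 113, 122 and 118 CPM in WT (0.24 ± 0.0431, edgeR adjusted p = 0.00149). All 3 kept their call in every alternative. Cox5b, Cox6a1 and Cox7c did not pass, with log2 fold changes of 0.14, 0.13 and 0.15 (edgeR adjusted p = 0.123, 0.153 and 0.0508). Cox7c passed in several alternatives, among them RLE scaling, DESeq2 and unstranded counts. It did not pass in others, among them limma-voom and the filter at 1 CPM. In each of these genes, WT replicate 2 reached into the enhancer KO range. Without that library, 6 members of complex IV were higher, and without WT replicate 1 the median was 0.06. Copies elsewhere share 53% of the 50-base stretches of Cox7c.

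Several complex IV subunits exist as a widely expressed isoform and an isoform restricted to tissues such as heart, skeletal muscle, lung or testis, and the restricted isoforms were low here. Per length, the largest was Cox6b2, at 13.7 CPM per kb in enhancer KO and 11.3 CPM per kb in WT, while its partner Cox6b1 was at 353 CPM per kb in enhancer KO and 356 CPM per kb in WT. Cox4i2, known as a hypoxia-responsive isoform, stood at 2.12 CPM per kb in enhancer KO and 2.48 CPM per kb in WT, against 533 and 446 CPM per kb for Cox4i1 in the same groups. Widely expressed forms thus dominated in both groups. Cox7a1 was at 9.54 CPM per kb in enhancer KO and 8.19 CPM per kb in WT, Cox8b at 2.77 and 3.13 CPM per kb in the same order, and Cox6a2 at 0.530 and 0.408 CPM per kb. None of the restricted isoforms passed the test, although Cox6b2 did so without enhancer KO replicate 3, with log2 fold changes of -0.22 for Cox4i2, 0.39 for Cox6a2, 0.27 for Cox6b2, 0.22 for Cox7a1 and -0.20 for Cox8b. Cox6a2 had 67.6% to 89.7% of its stranded reads on the other strand. Cox8c was listed at 0 and Cox7b2 had 0.0925 to 0.260 CPM in all libraries, and neither was tested. Ndufa4l2, a hypoxia-responsive relative of Ndufa4, had 1.89, 1.87 and 1.68 CPM in enhancer KO and 2.07, 2.25 and 1.98 CPM in WT (log2 fold change -0.20 ± 0.173, edgeR adjusted p = 0.408). Of the widely expressed partners, Cox4i1 passed, while Cox6a1, Cox6b1, Cox7a2, Cox7b, Cox8a and Ndufa4 did not, with log2 fold changes of -0.01 to 0.13. The sign of Cox6b1 turned positive with library size alone as the scaling (0.05).

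**Figure D3:**
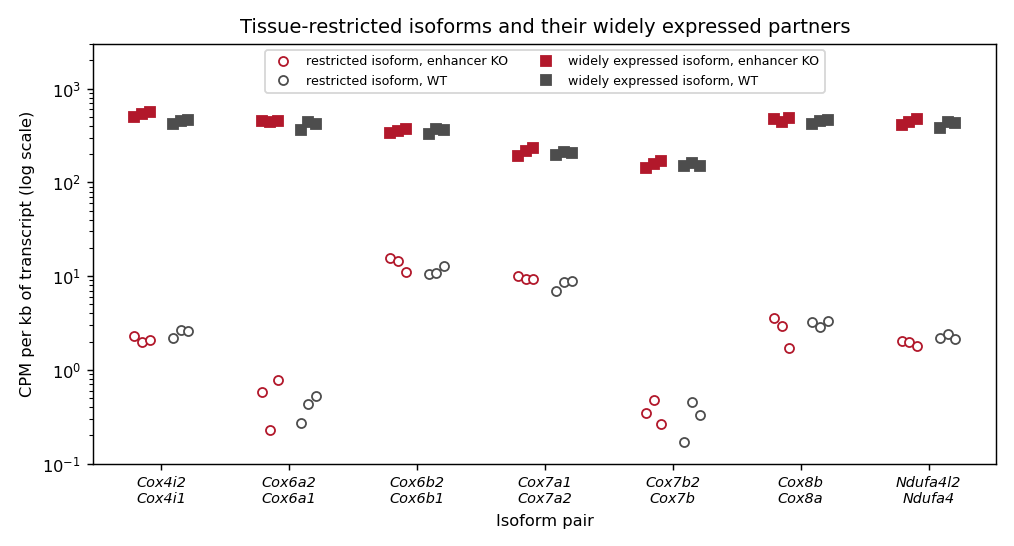
CPM per kb of transcript (y axis, log scale) of restricted isoforms and of their widely expressed partners, 1 point a library, enhancer KO left of WT. In each pair the widely expressed form is the higher one, as in Cox4i1 at 533 CPM per kb in enhancer KO and 446 CPM per kb in WT against Cox4i2 at 2.12 and 2.48.

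Complex V had 3 of 15 members higher (20%, against 13.4% of all genes tested), or 1 without enhancer KO replicate 3 or WT replicate 2. Its summed level was 3961 ± 108 CPM in enhancer KO and 3640 ± 144 CPM in WT (SD, n = 3 each), 8.81% higher. In the catalytic F1 head, Atp5b, the beta subunit that makes ATP and the most abundant member with a known length, per length, had 1381, 1298 and 1398 CPM in enhancer KO and 1188, 1241 and 1270 CPM in WT (log2 fold change 0.14 ± 0.044, edgeR adjusted p = 0.0295). Atp5e, the epsilon subunit of the central stalk, had 61.0, 65.3 and 62.8 CPM in enhancer KO and 43.8, 48.2 and 58.1 CPM in WT (0.33 ± 0.0938, edgeR adjusted p = 0.0291). Atp5b lost its call without 4 and Atp5e without 3 of the 6 libraries, so both calls depend on the full set of libraries. The alpha subunit gene Atp5a1 had 859, 856 and 896 CPM in enhancer KO and 796, 793 and 835 CPM in WT. The groups did not overlap, but the test was not passed (0.11 ± 0.0421, edgeR adjusted p = 0.0743).

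The ring of c subunits that turns in the membrane is made from the Atp5g genes, which encode the same mature protein. Atp5g3 had the smallest p of all members: 231, 239 and 242 CPM in enhancer KO and 187, 189 and 198 CPM in WT (log2 fold change 0.31 ± 0.0392, edgeR adjusted p = 0.000124). Its promoter stretch, printed above, held neither motif. Atp5g1 had 142, 143 and 142 CPM in enhancer KO and 119, 137 and 140 CPM in WT (0.11 ± 0.0557, edgeR adjusted p = 0.152). Atp5g2 was at 34.9 ± 0.977 CPM in enhancer KO and 35.5 ± 2.77 CPM in WT (SD, n = 3 each; log2 fold change -0.02 ± 0.0625, edgeR adjusted p = 0.868). Per length, Atp5g3 was the highest of the 3 genes, at 333 CPM per kb in enhancer KO and 268 CPM per kb in WT, and Atp5g2 the lowest, at 79.2 and 80.4 CPM per kb. Copies of Atp5g1 and Atp5g2 elsewhere in the genome share 56.2% and 100% of their 50-base stretches, so their levels are uncertain, as are those of Atp5l and Atp5h, with 68.5% and 50.5%. The side stalk genes Atp5f1, Atp5h, Atp5j and Atp5o, which hold the head in place, had log2 fold changes of 0.07 to 0.11, and none passed. Of the small membrane subunits, Atp5l and Atp5j2 had log2 fold changes of 0.00, and Atp5k was at 0.32 ± 0.157 (edgeR adjusted p = 0.179), with 27.4, 34.4 and 38.9 CPM in enhancer KO and 23.2, 31.0 and 27.0 CPM in WT.

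Within each group, the members moved together from library to library. Enhancer KO replicate 3 was the highest of its group for 66 of the 89 members (74.2%), against 37.4% of all genes tested, and enhancer KO replicate 1 the lowest for 58 (65.2%, against 32.3%). WT replicate 1, the female library, was the lowest of its group for 69 members (77.5%), against 35.9% of all genes, and WT replicate 2 the highest for 52 (58.4%, against 34.8%). The median over members of the log2 ratio of enhancer KO replicate 3 to replicate 1 was 0.10, and that of WT replicate 2 to replicate 1 was 0.14. The median log2 fold change between the groups was 0.11. These library pairs were chosen after their values were seen, as the extremes of their groups. Without WT replicate 1, the median log2 fold change between the groups was 0.06. The 22 members above passed gene by gene. Members that move together are not independent, so a shift shared by the members was not tested.

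**Figure D4:**
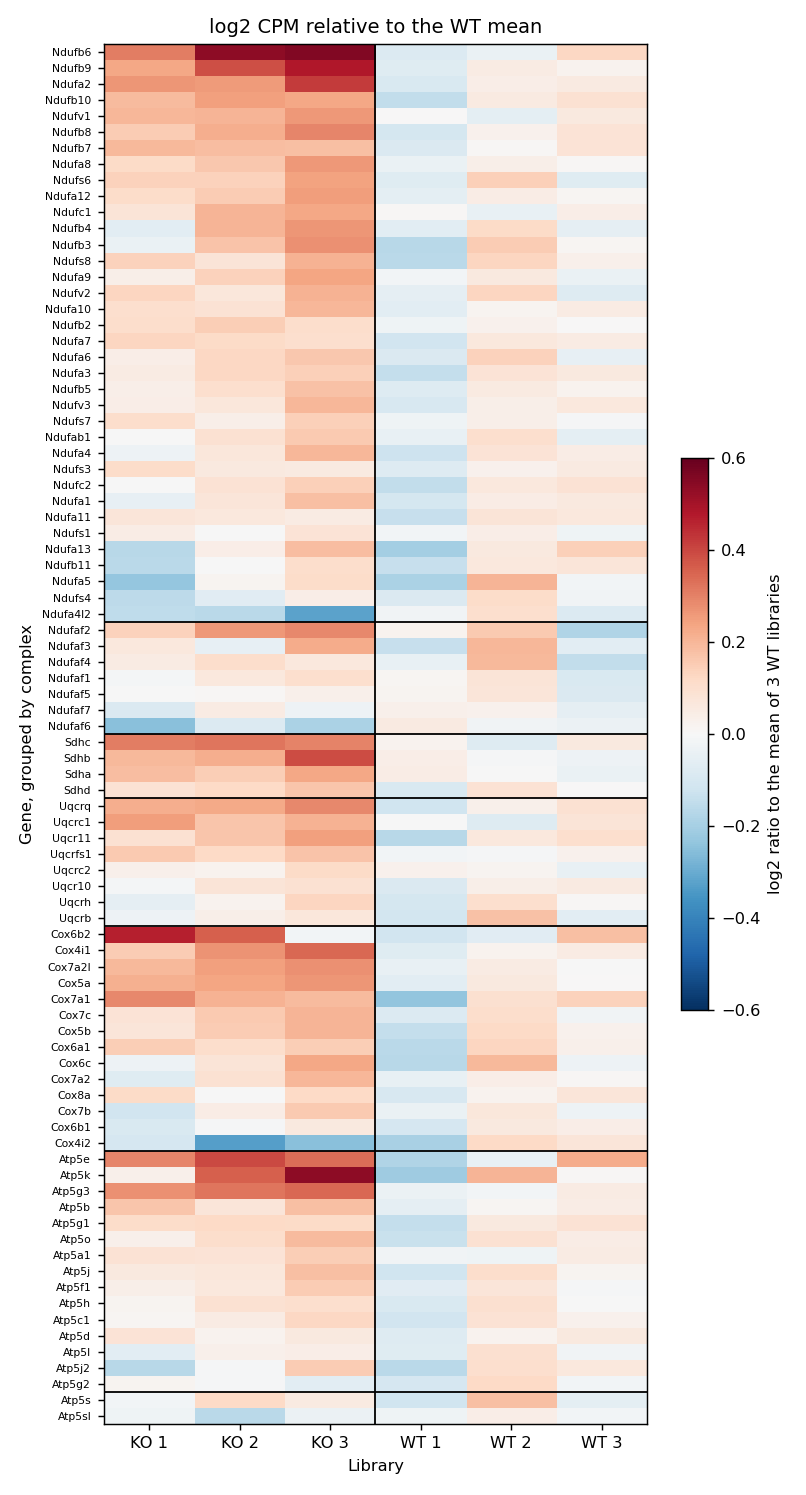
Level of 86 of the 87 members with at least 1 CPM in every library (rows, by complex from I at the top, then assembly factors, II, III, IV, V and other Atp5 genes), as log2 CPM relative to the mean of the 3 WT libraries; red is higher and blue lower. Enhancer KO replicate 3 holds the most red, and WT replicate 1 is the bluest column, with median values of 0.17 and -0.08 over the members.

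The members are short genes. Their median spliced length was 745 bases, against 2798 bases over all genes tested, and their median total intron length was 6225 bases, against 18490 bases. Members that rose had median lengths of 738.5 spliced and 5116 intronic bases, and members that did not pass had 814 and 6508. Across the 88 members with a length, log2 fold change had a Spearman rho of -0.14 with spliced length and -0.14 with intron length, as a description over genes of the same 6 libraries. With each library's trend over length, introns and GC content removed, all 22 kept their call and 30 members were higher, while over all genes the calls moved as well, to 2954 higher and 2275 lower, against 2120 and 2844. Of the members 6 lie on chromosome 10, where Atoh7 lies. The nearest, Atp5d, is 17.0 Mb from Atoh7 and did not pass (log2 fold change 0.05), and the members there that rose, Ndufa12 and Atp5b, are 31.1 and 65.0 Mb away.

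Of 56 further genes tested that belong to the chain, assemble it or feed it, 8 were higher (14.3%, against 13.4% of all genes). Another 3 were lower (5.36%, against 17.9%), and the median log2 fold change was 0.06. The share higher was near that of all genes. Coa5, an assembly factor of complex IV, had 84.0, 81.8 and 79.7 CPM in enhancer KO and 64.1, 65.2 and 63.3 CPM in WT (0.35 ± 0.0421, edgeR adjusted p = 9.15e-05). Uqcc2, which helps assemble complex III, was at 40.5 ± 2.16 CPM in enhancer KO and 33.2 ± 0.752 CPM in WT (log2 fold change 0.29, edgeR adjusted p = 0.00231). Etfb, part of the flavoprotein that brings electrons from fatty acid oxidation, was at 28.5 ± 0.718 CPM in enhancer KO and 23.1 ± 2.21 CPM in WT (0.30, edgeR adjusted p = 0.00854). The others that rose were Cox14, Coa3, Atpaf1, Coq2 and Coq7. Pdss1, a subunit of the enzyme that makes the side chain of coenzyme Q, had 5.21, 5.43 and 6.33 CPM in enhancer KO and 9.71, 10.7 and 9.65 CPM in WT, and fell by 0.82 on the log2 scale (SE 0.108; edgeR adjusted p = 0.00018). Cox16 and Cox20, assembly factors of complex IV, also fell. Cox16 was low, with 39 to 68 reads a library. It was at 1.255 CPM in enhancer KO and 2.073 CPM in WT (log2 fold change -0.71, edgeR adjusted p = 0.0256). Cox20 was at 11.58 CPM in enhancer KO and 14.62 CPM in WT (-0.33, edgeR adjusted p = 0.0179). The difference between this list and the members was not tested. The list also holds chain components under other symbols, such as Cyc1 of complex III, which did not pass (log2 fold change 0.06, edgeR adjusted p = 0.328). The 13 chain genes of mitochondrial DNA were not among the gene symbols of the deposited counts under their mt- names, so they were not analysed here.

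Of 15 regulators of mitochondrial genes tested, 3 were higher (20%, against 13.4% of all genes) and 5 lower (33.3%, against 17.9%), with a median log2 fold change of -0.12. Ppargc1a, the coactivator best known for raising respiratory chain genes, had 94.2, 91.9 and 98.5 CPM in enhancer KO and 84.0, 87.6 and 83.8 CPM in WT (log2 fold change 0.16 ± 0.0436, edgeR adjusted p = 0.0167). Its relative Ppargc1b had 27.4, 27.2 and 26.7 CPM in enhancer KO and 34.1, 35.8 and 34.5 CPM in WT (-0.36 ± 0.053, edgeR adjusted p = 0.000397). The 2 coactivators thus passed in opposite directions. Esrra, the nuclear receptor that both bind, was at 56.1 ± 2.21 CPM in enhancer KO and 48.3 ± 2.78 CPM in WT (0.21, edgeR adjusted p = 0.0102). Tfam, which packages mitochondrial DNA and helps start its transcription, was at 35.5 ± 1.09 CPM in enhancer KO and 31.2 ± 1.37 CPM in WT (0.19, edgeR adjusted p = 0.0232). Polrmt, the mitochondrial RNA polymerase, was at 27.0 ± 1.31 CPM in enhancer KO and 33.4 ± 1.59 CPM in WT (-0.30, edgeR adjusted p = 0.00294), and Polg, the mitochondrial DNA polymerase, fell as well (-0.19). Of the factors whose motifs were searched, Gabpa and Nrf1 were lower, while Yy1 (log2 fold change 0.12, edgeR adjusted p = 0.125) and Gabpb1, which encodes the partner of Gabpa in GABP (edgeR adjusted p = 0.0567), did not pass. Gabpa, a subunit of GABP, had 35.9, 34.7 and 35.9 CPM in enhancer KO and 38.8, 41.3 and 42.3 CPM in WT (-0.20 ± 0.0528, edgeR adjusted p = 0.0134). Nrf1 had 17.5, 16.5 and 15.3 CPM in enhancer KO and 19.9, 18.9 and 18.4 CPM in WT (-0.22 ± 0.0737, edgeR adjusted p = 0.0427). With library size alone as the scaling neither passed (edgeR adjusted p = 0.244 for Gabpa and 0.275 for Nrf1), and Nrf1 lost its call without any of 5 of the 6 libraries, with no filter (edgeR adjusted p = 0.0538), unstranded (0.0578), without Rn45s (0.0591) and by DESeq2 (0.1). Gabpa lost it without enhancer KO replicate 2 or WT replicate 3, Tfam without enhancer KO replicate 2 or WT replicate 1, and Ppargc1a without WT replicate 3. Gabpa overlaps the member Atp5j on the opposite strand, and the counts used are of 1 strand.

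**Figure D5:**
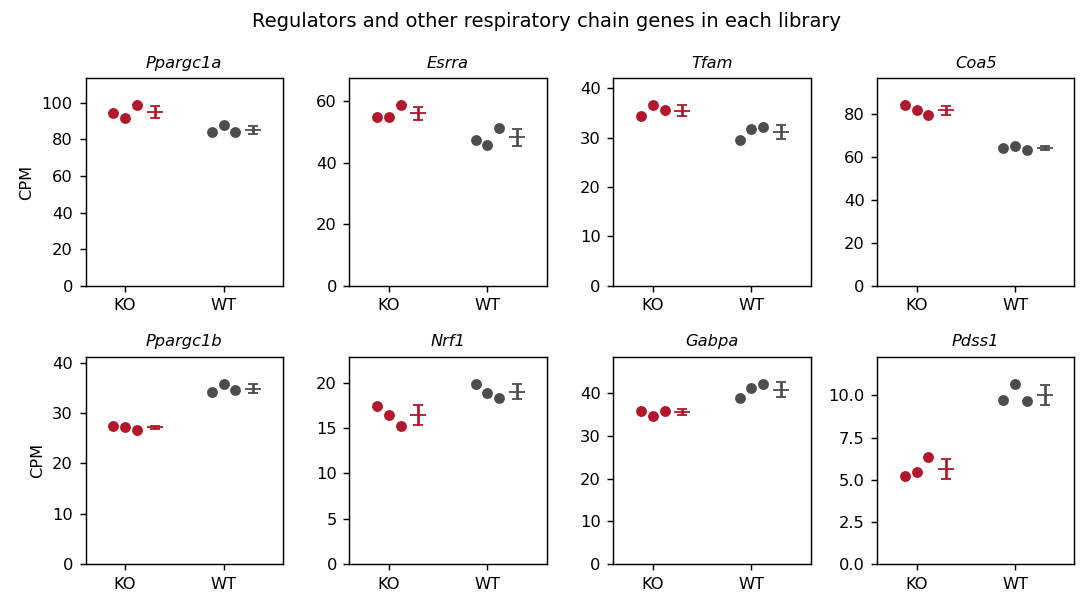
CPM (y axis, from 0) of 6 regulators of mitochondrial genes and of Coa5 and Pdss1, 1 point a library, with the mean and SD of 3 libraries beside the points, enhancer KO in red and WT in grey. Ppargc1a, Esrra, Tfam and Coa5 lie higher in enhancer KO, and Ppargc1b, Nrf1, Gabpa and Pdss1 lie lower.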

How the data were processed

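The authors deposited gene-level read counts, in whole numbers and not normalized, for 3 enhancer KO and 3 WT libraries. Per the submitters' processing notes, the authors used Trimmomatic, STAR and the mm10 genome. Tool version, annotation and options: not given in the sources used here. Counts of 1 strand were used, since 1.62% to 1.88% of stranded reads lay in the other. Rows that name no gene (unmapped, multimapping, outside exons, ambiguous) were left out of library sizes. Multimapping reads made up 10.17% to 11.26% of all reads in enhancer KO and 7.1% to 8.21% in WT. Genes were filtered with filterByExpr, scaled by TMM and tested with edgeR 4.0.16 (R 4.3.3; robust quasi-likelihood, two-sided, Benjamini-Hochberg adjustment over all 15846 genes). CPM use TMM-scaled library sizes, and SE is the log2 fold change over the square root of F. CPM per kb divide by the spliced length of a principal transcript. DESeq2 1.42.0 and limma-voom 3.58.1 were alternatives. The code was tested on simulated counts. Libraries of 1 group differed by more than sampling noise (median chi-square per gene 1.09 to 4.95 within groups, against 0.455). These values use library totals without TMM scaling, so a shift in composition also raises them. Pairs with WT replicate 2, the library with 12.9% Rn45s, gave 4.29 and 4.95, and the other pairs 1.09 to 1.82. Gene structure came from GENCODE release 21 and promoters from RefSeq.

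Members and lists were chosen with earlier results of these data known. Genes named are, per complex, the most abundant and up to 4 with the smallest p past the threshold, the largest and smallest changes among those past it, the isoform pairs, the leading genes of the list of other chain genes and of regulators, 5 further regulators by name, and Atoh7. Other genes were named after their values were seen. A gene that this rule names is not reported here.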

Additional observations from a re-analysis of the deposited data

How the results depend on the processing

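Alternatives changed the number of members called higher but not its direction. That number was 22, and 24 with RLE scaling or DESeq2. It was 31 with library size alone, 26 without a filter, and 22 at 1 CPM or with limma-voom. It was 29 unstranded or without Rn45s, and 30 with the structure trend removed (2954 genes higher and 2275 lower over all genes). Leaving out 1 library gave 18 to 27. The count of all genes higher, 2120 in the main run, moved too. It was 2266 with RLE scaling, 2020 with DESeq2, 2319 without a filter, 2041 at 1 CPM and 2081 with limma-voom. Unstranded it was 2535, without Rn45s 2515, and 1420 to 2214 with 1 library left out. No member was lower in any alternative, while 1689 to 3228 of all genes were. Of the 22, 16 kept their call in all 16 alternatives, while Atp5b, Atp5e, Ndufc1, Ndufb7, Ndufb10 and Ndufa8 lost it in at least 1. With library size alone, the medians were 0.29 for complex II, 0.17 for complex III and 0.20 for complex IV, 6 members of complex IV were higher, and over all genes 2165 were higher and 1689 lower, against 2120 and 2844; DESeq2 gave 5 for complex V. Leaving out 1 library gave medians of 0.19 to 0.26 (complex II) and 0.064 to 0.209 (complex IV), and counts of 3 to 6 (complex IV) and 1 to 3 (complex V). Cox6b1 was positive with library size alone (0.0533), unstranded (0.0063) and without Rn45s (0.0054). Leaving out 1 library turned signs of Cox6b1 (-0.0616 to 0.0381), Cox6a2 (-0.0015 to 0.74), Cox8b (-0.42 to 0.0597) and Cox7b (-0.0293 to 0.12). The causes were not tested. Replicate numbers did not pair the libraries (same-number r 0.0526, -0.0386 and -0.0795); with the number as a replicate block, 26 members were higher, 5 in complex IV, and Atp5b lost its call (edgeR adjusted p = 0.0587). Of 44 named genes with a test, 31 kept direction and call throughout. Counts of 647 to 58298 reads per library lay behind called members. The filter on low counts left out 3 members, among them Ndufs5, whose listed 0 is uncertain.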
